A study of Mus musculus with 4 samples.

Results

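In a library of sorted long-term hematopoietic stem cells from MxCRE mice, 568 of 2311 cells carried 2 or more transcripts of Cd74. They are called Cd74-rich cells here. Their share was 24.6% (exact 95% binomial interval 22.8 to 26.4%). The cells were chosen by that count: a barcode needed 3000 or more UMIs (unique molecular identifiers, marking single captured transcripts), a minimum of 500 genes, and mitochondrial UMIs of 10% or less. Each cell was then thinned at random to 3000 UMIs, and 2 or more of them had to be Cd74. The comparison cells are the 1359 cells of the same library with 0 Cd74 UMIs, and 384 cells with 1 UMI lie between both classes. Over the whole series, 9727 cells of 11407 barcodes passed the same filter.

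The series holds 4 single-cell libraries, 1 for each genotype, made from marrow of 8 to 11 week old C57BL/6 mice. MxCRE is the control, a strain with Cre recombinase under the interferon-inducible Mx1 promoter. NPMc+ mice carry the cytoplasmic mutant of nucleophosmin, Flt3-ITD mice carry an internal tandem duplication in the receptor Flt3, and NPMc+/Flt3-ITD mice carry both. Whether the mutant animals also carry the Cre, how Cre was induced and how many mice went into a library are not given in the sources used here. Each class has a single value in the MxCRE library, so intervals there cover counting error only and no test was made between its cells. The replicated test comes from the 3 mutant libraries, which took no part in choosing the 568 cells.

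Cd74 encodes the invariant chain, which chaperones MHC class II molecules to the endosome and keeps their groove closed. There, proteases such as cathepsin S trim it, and H2-DM exchanges the last fragment for a peptide. H2-Aa, H2-Ab1 and H2-Eb1 encode class II chains. The transactivator Ciita turns on the class II genes and Cd74 together, and interferon-gamma can induce it. Class II is best known from B cells, dendritic cells and macrophages, and hematopoietic stem cells also carry it. Cd74 at the cell surface is in addition a receptor for the cytokine Mif.

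The promoters below belong to genes that were higher in the members, taken from the class II and interferon lists. Sequences are the 120 bases just upstream of the RefSeq start (GRCm38.p6), on the gene's strand, and capitals mark the motif. In the class II pair they mark the Y box letters CTGATTGG, 51 bases before the start in H2-Aa (chr17:34287824-34287943, minus strand) and 62 bases before it in H2-Eb1 (chr17:34305747-34305866, plus strand).
H2-Aa: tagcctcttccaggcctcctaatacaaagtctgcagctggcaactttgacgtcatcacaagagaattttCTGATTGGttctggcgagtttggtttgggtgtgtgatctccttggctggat
H2-Eb1: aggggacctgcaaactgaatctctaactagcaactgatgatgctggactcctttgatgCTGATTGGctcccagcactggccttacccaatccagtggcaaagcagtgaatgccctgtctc
The next 3 belong to interferon-inducible GTPases, and capitals mark the core of an interferon-stimulated response element, GAAA and GAAA with any 2 bases between them, in either orientation. It lies 59 bases before the start in Gbp2 (chr3:142620543-142620662), 34 in Igtp (chr11:58199436-58199555) and 64 in Irgm2 (chr11:58214857-58214976), all on the plus strand.
Gbp2: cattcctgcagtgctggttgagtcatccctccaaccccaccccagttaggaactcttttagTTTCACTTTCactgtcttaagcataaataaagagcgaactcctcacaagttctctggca
Igtp: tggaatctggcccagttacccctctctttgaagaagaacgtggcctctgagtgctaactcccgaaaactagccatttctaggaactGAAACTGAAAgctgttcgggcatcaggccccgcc
Irgm2: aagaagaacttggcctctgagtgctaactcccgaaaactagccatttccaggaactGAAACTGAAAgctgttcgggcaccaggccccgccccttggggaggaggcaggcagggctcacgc

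Both motifs were searched on both strands in 300-base windows around 32851 RefSeq starts. CTGATTGG was found in 4.10% of all windows, and in 4 of the 8 listed class II genes with an entry, H2-Aa, H2-Eb1, H2-Eb2 and H2-Oa. The response element core was found in 3.44% of all windows and in 11 of the 19 listed interferon genes with an entry. A match describes the letters only.

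Most cells had few Cd74 UMIs, and the members formed a long tail, not a separate group. Of the 2311 cells 1359 lay at 0. The members ranged from 2 to 19 Cd74 UMIs, with a median of 3 and quartiles of 2 and 6. Just inside the limit lay 179 cells with 2 UMIs, and just outside it 384 cells with 1. The UMIs that thinning had set aside were not used by the rule. In these, Cd74 stood at 1215 CPM (UMIs scaled to a total of 1e6) in the members, 320 CPM in the 1-UMI cells and 82.0 CPM in the 0-UMI cells. The 0-UMI class is therefore low in Cd74, not empty of it. A second random thinning named 577 members, of which 451 were the same cells, 79.4% of the first set and 78.2% of the second. It moved 35 members (6.16%) to 0 UMIs and 40 of the 0-UMI cells (2.94%) into the members.

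**Figure D1:**
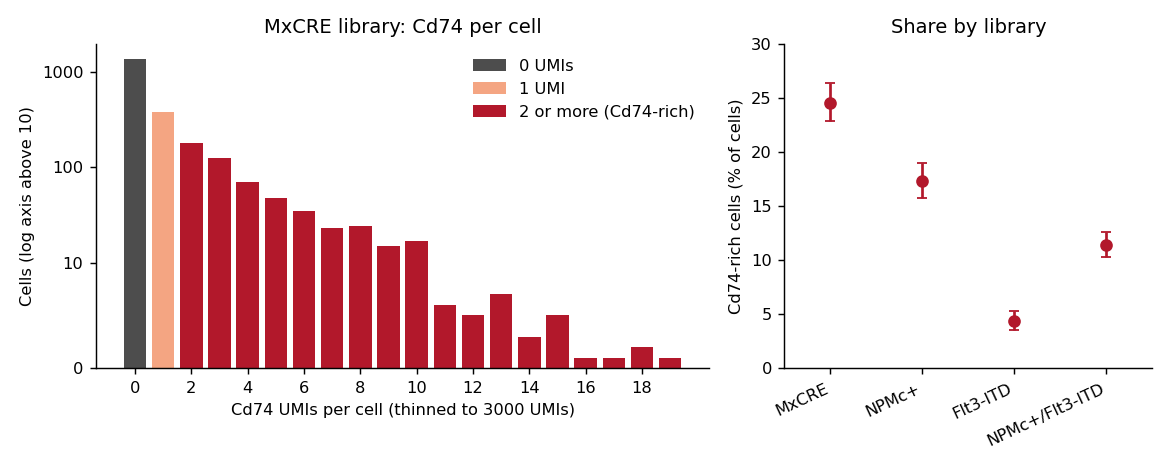
Left, number of MxCRE cells (vertical axis, logarithmic above 10) at each Cd74 UMI count after thinning to 3000 UMIs, coloured by class; right, percent of cells that were Cd74-rich in each library with the exact 95% interval. Counts fall from 1359 cells at 0 UMIs to single cells near 19, and the share is highest in MxCRE (24.6%) and lowest in Flt3-ITD (4.37%).

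The members carried stem cell transcripts, and several defining transcripts of the usual class II cells were at 0. All 14 stem cell markers were detected, at a summed 2421 CPM in the members against 1751 CPM in the Cd74-zero cells. Of 15 B cell markers 9 were at 0 in the members, among them Cd79a, Ms4a1 and Pax5, and the summed level was 56.3 against 47.8 CPM. Cd79b was detected, at 50.5 against 39.5 CPM. Of 11 markers of conventional dendritic cells 5 were at 0, among them Itgax, Batf3 and Ccr7, with 44.6 against 36.8 CPM. Wdfy4 and Fscn1 were detected, at 18.8 and 18.2 CPM in the members and 19.4 and 7.60 CPM in the Cd74-zero cells. Plasmacytoid dendritic markers stood at 0.587 CPM and 0. Of 15 monocyte and macrophage markers 9 were at 0, among them Csf1r, Ly6c2 and Ccr2. Their sum was 444 against 427 CPM, mostly Lyz2 at 378 against 374 CPM. Ms4a6c stood at 46.9 against 34.6 CPM. Cd68, C1qa, C1qb and C1qc were also detected in the members, and C1qc was at 0 in the Cd74-zero cells. Cd79a, Ms4a1, Pax5, Itgax, Batf3 and Ccr7 were also at 0 in the Cd74-zero cells, and the 3 sums were higher in the members. Of the members 14 of 568 (2.46%, interval 1.35 to 4.10%) held 5 or more UMIs of monocyte and macrophage markers, against 24 of 1359 Cd74-zero cells (1.77%, 1.13 to 2.62%). Over all blood cell types outside the stem cell gate, megakaryocyte markers left out, the shares were 2.64% and 3.24%.

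Cells of the sorted library with markers of other blood lineages were also counted by Cd74 class. Among MxCRE cells with 5 or more UMIs of T or NK cell markers, 0 of 14 were Cd74-rich, which allows a share of up to 21.4% by the limit of 3 counts and 23.2% by the exact interval, and 7.14% had any Cd74 UMI. Among cells with 5 or more megakaryocyte marker UMIs 3 of 41 were Cd74-rich (7.32%, interval 1.54 to 19.9%). Among those with erythroid markers 1 of 11 was (9.09%, interval 0.230 to 41.3%). Their median depths were 9241, 10450 and 26510 UMIs, against 8344 in the whole library. The megakaryocyte-marked share lay below the 24.6% of the library with intervals that do not overlap. Of 42 cells with 5 or more monocyte and macrophage marker UMIs 14 were Cd74-rich (33.3%, interval 19.6 to 49.5%). Their median depth was 7540 UMIs, and that interval holds the 24.6% of the library. The T or NK and erythroid sets are too few to tell. Markers of the T or NK and megakaryocyte sets, such as Nkg7 and Itga2b, were themselves lower in the members. The shares are therefore no measure of free RNA, and its part was not tested.

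Depth before thinning differed between the classes and ran against the difference in Cd74. The median was 7585 UMIs in the members, 8211 in the 1-UMI cells and 8770 in the Cd74-zero cells. After thinning the median number of genes was 1500 in the members and 1499 in the Cd74-zero cells. Cells with both Y-linked transcripts and Xist, which can mark 2 cells under 1 barcode, made up 8.45% of members and 8.68% of Cd74-zero cells. Between MxCRE and the mutant libraries 14 kept barcodes were shared, 4 of them with a member and 1 Cd74-rich in both.

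The 3 class II chain genes H2-Ab1, H2-Aa and H2-Eb1 were among the 14 genes highest in the members. They lie side by side on chromosome 17 (mm10, GENCODE M21): H2-Ab1 at chr17:34257689-34269419 (plus), H2-Aa at chr17:34282744-34287823 (minus) and H2-Eb1 at chr17:34305867-34316674 (plus). H2-Aa, an alpha chain, stood at 519 CPM in the members and 108 CPM in the Cd74-zero cells, 4.79-fold higher (counting interval 4.26 to 5.38). H2-Ab1, its beta chain, stood at 437 and 118 CPM, 3.70-fold higher (3.30 to 4.16). H2-Eb1, another beta chain gene, stood at 290 and 53.0 CPM, 5.47-fold higher (4.65 to 6.45). In each of the 3 genes the level of the members was several times that of the comparison cells.

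Most members carried more than Cd74 alone. All 3 chain genes had a UMI in 28.2% of members (24.5 to 32.1%) and in 2.80% of Cd74-zero cells (1.99 to 3.82%). None of the 3 had one in 10.9% of members and 54.7% of Cd74-zero cells. H2-Aa alone was seen in 68.0% of members and 23.4% of Cd74-zero cells.

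The chains were graded with the Cd74 count, with no break at the chosen limit. H2-Aa went from 108 CPM at 0 Cd74 UMIs through 232 at 1, 328 at 2, 469 at 3 to 4 and 657 at 5 to 9, to 1014 CPM in the 48 cells at 10 or more. H2-Eb1 went through 53.0, 144, 173, 225, 435 and 556 CPM over the same classes. H2-Ab1 went through 118, 221, 304, 345, 584 and 861 CPM. The cells with 1 Cd74 UMI thus lay between both classes in all 3 genes.

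**Figure D2:**
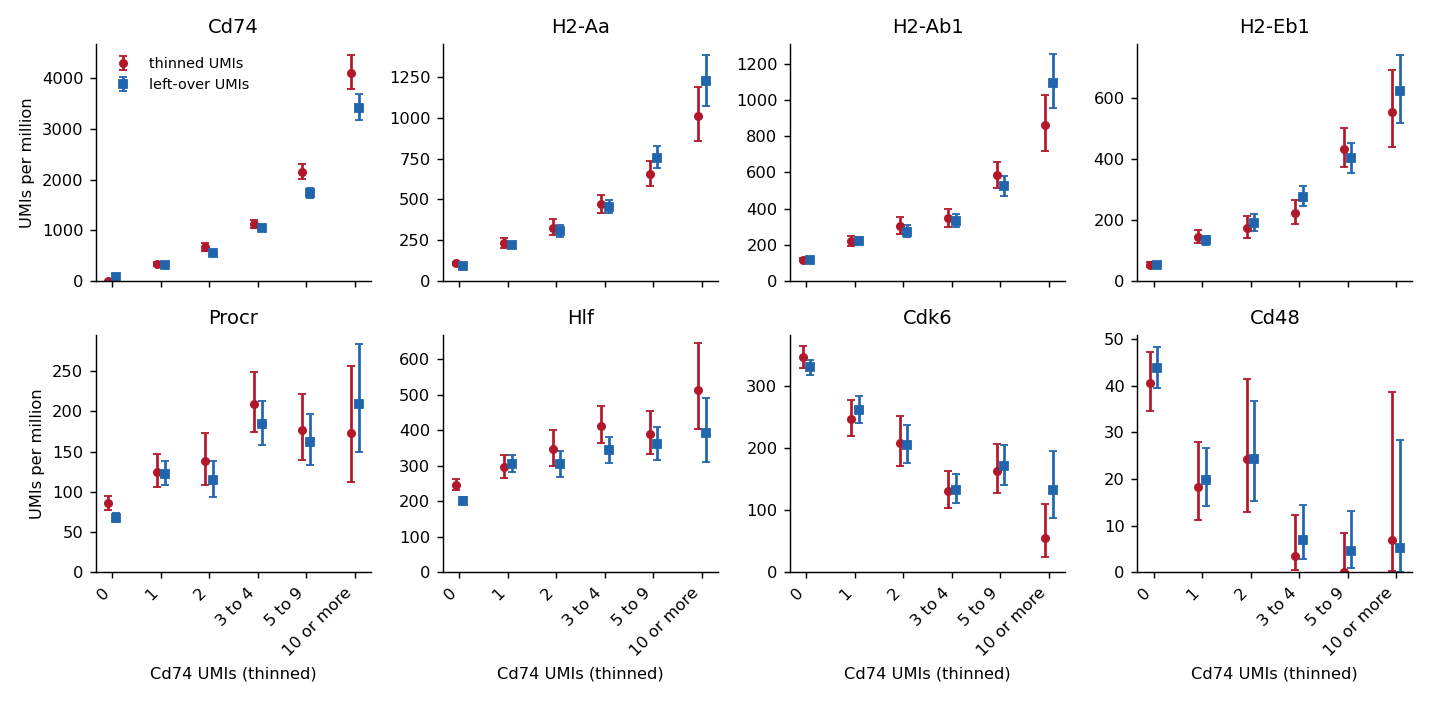
Level (CPM, vertical axes) of Cd74, 3 class II chain genes and 4 stem or progenitor genes in MxCRE cells grouped by thinned Cd74 UMIs (horizontal axis), in the thinned UMIs (circles) and in the UMIs set aside by thinning (squares); bars are exact 95% counting intervals. H2-Aa climbs from 108 to 1014 CPM across the classes, Procr and Hlf are lower at 0 than in the other classes, and Cdk6 falls from 346 to 55.6 CPM.

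Most genes that load and regulate class II differed less. H2-DMb1, a chain of the peptide exchanger, stood at 120 against 71.1 CPM (1.69-fold, 1.41 to 2.03), and its partner H2-DMa at 292 against 252 CPM (1.16-fold, 1.04 to 1.29). H2-DMb1 and H2-DMb2 are close copies, so reads can be split between them, and H2-DMb2, at 6.46 against 1.72 CPM (3.76-fold higher, 1.33 to 11.4), had only 11 and 7 UMIs. H2-Oa, a chain of the inhibitor of H2-DM, stood at 45.8 against 34.1 CPM (1.34-fold, 1.004 to 1.78). Its partner H2-Ob had 14 and 59 UMIs, 1.76-fold lower with an interval of 0.97 to 3.42. H2-Eb2 had 0 UMIs in the members and 4 in the Cd74-zero cells.

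Ciita was at the edge of detection. It had 12 UMIs in the members and 14 in the Cd74-zero cells, 7.04 and 3.43 CPM, with a ratio of 2.05 and an interval of 0.87 to 4.78. The thinned UMIs alone were too few to show a difference in Ciita. In the UMIs set aside by thinning it had 23 UMIs in the members and 19 in the Cd74-zero cells. These were 8.29 CPM (5.25 to 12.4) and 2.20 CPM (1.32 to 3.43), with intervals that do not overlap. Ctss, cathepsin S, stood at 41.7 against 15.2 CPM, 2.74-fold higher (1.92 to 3.92). It was the 1 gene of the 10 measured regulators and processing genes that passed 1.5-fold.

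Across all genes few lay apart by as much. Of 6755 genes at 20 CPM or more in either class, 257 (3.80%) were at least 1.5-fold higher in the members and 237 (3.51%) at least 1.5-fold lower. TMM scaling, which moved the median of all genes from -0.00 to -0.04 on the log2 scale, gave 208 and 285. Against that background 4 of the 6 measured class II molecules were higher and none lower, with a median log2 ratio of 1.32. The median over all genes was -0.00.

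**Figure D3:**
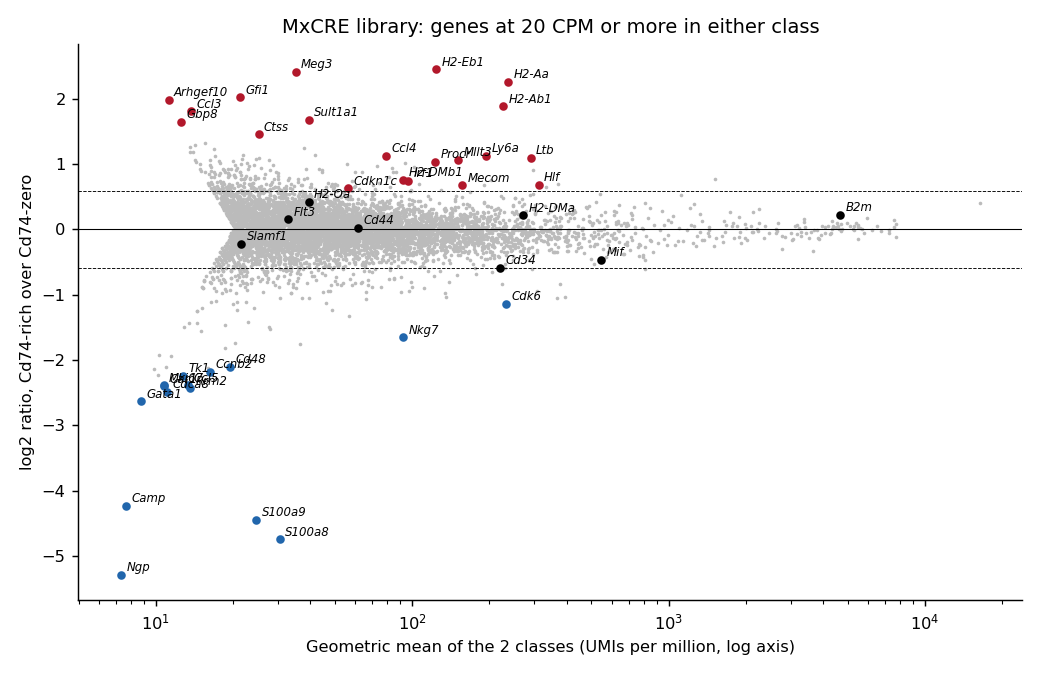
Each point is a gene of the MxCRE library with 20 CPM or more in either class; horizontal axis, geometric mean of both classes (log axis); vertical axis, log2 ratio of Cd74-rich over Cd74-zero; dashed lines at 1.5-fold. H2-Eb1, Meg3, H2-Aa, Gfi1, Arhgef10 and H2-Ab1 lie highest, and the 4 lowest points, Ngp, S100a8, S100a9 and Camp, rest almost wholly on 1 Cd74-zero cell.

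Genes of the interferon-gamma response had the next highest list median. Of its 19 measured genes 11 passed 1.5-fold upward and none downward, with a median log2 ratio of 0.77. Irf1, an interferon-induced transcription factor, stood at 124 against 74.3 CPM (1.67-fold, 1.40 to 2.002). Among the GTPases that attack intracellular pathogens, Iigp1 was 2.02-fold higher (1.68 to 2.42), Igtp 1.95-fold and Gbp2 1.93-fold. Irgm2 was 2.34-fold higher. Tgtp1 and Tgtp2 were 1.70-fold and 1.91-fold higher and are near copies, so their reads can be exchanged. Of the 8 higher genes with a promoter entry 7 held the response element core, Irf1 being the other.

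Type I interferon targets and class I genes were shifted less. The lists share some genes. Of 33 type I targets 4 were higher and none lower (median log2 ratio 0.23). Among them Ifitm1, a membrane restriction factor, stood at 1978 against 1163 CPM, 1.70-fold higher (1.63 to 1.78). Ly6a, the stem cell antigen Sca-1, stood at 287 against 131 CPM, 2.19-fold higher (1.93 to 2.48). Of 23 class I genes only H2-T10 passed 1.5-fold, and the median was 0.20. B2m, the light chain of class I, was 1.17-fold higher (1.14 to 1.20).

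The members held more transcripts of genes that mark long-term stem cells. Of 36 measured identity genes 13 were at least 1.5-fold higher and 1, Gfi1b, was lower, with a median log2 ratio of 0.33. Procr, the receptor EPCR, stood at 175 against 85.8 CPM (2.04-fold, 1.75 to 2.39) and had a UMI in 38.6% of members and 21.2% of Cd74-zero cells. Hlf, a transcription factor of stem cells, stood at 395 against 246 CPM (1.61-fold, 1.46 to 1.77). Procr and Hlf occurred together in 26.9% of members and 13.02% of Cd74-zero cells. The factor Mecom was 1.60-fold higher (1.39 to 1.84), and Mllt3, which sustains stem cell self-renewal, 2.09-fold higher (1.81 to 2.41).

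A pair of rarer transcripts had larger ratios. Meg3, an imprinted long non-coding RNA, stood at 81.0 against 15.2 CPM (5.33-fold, 3.92 to 7.31) and was seen in 9.86% of members and 2.58% of Cd74-zero cells. Sult1a1, a sulfotransferase, stood at 70.4 against 22.1 CPM (3.19-fold, 2.41 to 4.24). Vwf, the platelet adhesion factor, stood at 13.5 against 7.11 CPM (1.90-fold higher, 1.05 to 3.40) on 23 and 29 UMIs, in 3.87% of members and 2.06% of Cd74-zero cells. Slamf1, the surface marker CD150, stood at 19.95 against 23.3 CPM with an interval that holds 1.

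Genes tied to quiescence were also shifted. Of 23 measured 6 were higher and none lower (median log2 ratio 0.32). The cell cycle inhibitor Cdkn1c, p57, was 1.55-fold higher (1.22 to 1.96), while members against cells with 1 Cd74 UMI gave a log2 ratio of -0.01 (interval -0.43 to 0.42). Ndn, a growth suppressor, was 1.85-fold higher (1.33 to 2.57). Cdk6, a kinase that drives exit from quiescence, stood at 157 against 346 CPM, 2.20-fold lower (1.93 to 2.52).

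Cell cycle genes showed the widest difference in the other direction. Of 33 measured G1/S and S phase genes 26 were at least 1.5-fold lower and none higher (median log2 ratio -0.88). Of 15 G2/M genes 12 were lower and none higher (median -0.87). Mki67, the proliferation antigen, stood at 4.69 against 24.5 CPM, 5.22-fold lower (2.55 to 12.4), and Rrm2, a subunit of ribonucleotide reductase, at 5.87 against 31.6 CPM, 5.39-fold lower. At least 1 UMI of 10 proliferation genes was present in 13.6% of members (10.8 to 16.6%) and in 28.8% of Cd74-zero cells (26.4 to 31.3%).

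With all cells that held such a UMI left out, the class II and stem cell medians moved little. The class II median was then 1.29, the interferon-gamma median 0.64, the identity median 0.28 and the G1/S median -0.42. The G2/M median turned to 0.17, after a choice of cells that sets 10 proliferation genes to 0. Among cells with a Procr UMI alone, the class II median was 1.25 and the interferon-gamma median 0.61, whereas the identity median was 0.16 and the G2/M median 0.08. Members against cells with 1 Cd74 UMI gave smaller medians than against Cd74-zero cells. The class II median was 0.67 (3 of 6 higher) and the interferon-gamma median 0.34 (3 of 20 higher). The identity median was 0.06 (5 higher and 2 lower of 36), the type I median 0.0004 and the G1/S median -0.42 (6 lower of 27).

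Markers of multipotent and committed progenitors fell on both sides. Cd48, a surface marker of progenitors, stood at 9.39 against 40.5 CPM, 4.31-fold lower (2.58 to 7.72), in 2.46% of members and 9.42% of Cd74-zero cells. Plac8, a gene of early progenitors, stood at 275 against 566 CPM, 2.06-fold lower (1.86 to 2.28). Nkg7, a granule gene, stood at 52.2 against 164 CPM, 3.14-fold lower (2.51 to 3.96). Cd34 was 1.498-fold lower (1.32 to 1.71), just short of the fold used. Flt3 stood at 34.6 against 31.1 CPM with an interval that holds 1. Ltb, lymphotoxin beta, stood at 424 against 198 CPM, 2.14-fold higher (1.94 to 2.37).

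Megakaryocyte and erythroid genes had list medians below 0 over all cells. Of 21 megakaryocyte genes 4 were lower and none higher (median log2 ratio -0.25). Itga2b, the platelet integrin CD41, stood at 35.8 against 89.5 CPM (2.50-fold lower, 1.90 to 3.34), and Gata1, the master factor of these lineages, at 3.52 against 21.8 CPM (6.20-fold lower, 2.74 to 17.4). Of 14 erythroid genes 4 were lower and 1, Hbb-bt, higher (median -0.25). The defining erythroid genes Klf1, Ermap and Alas2 were at 0 in the members. Without cells that held proliferation gene UMIs the erythroid median was 0.0063, and among cells with a Procr UMI it was 0.054. The megakaryocyte median was -0.17 and -0.00 in the same order, with 3 of 20 and 1 of 19 genes lower.

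Several extreme values rest on few cells. Of the 14 lowest genes S100a8, S100a9, Ngp and Camp are neutrophil markers, and 1 Cd74-zero cell held 1523 neutrophil marker UMIs of its 3000. That cell carried 623 of the 642 S100a8 UMIs of its class and 451 of the 470 S100a9 UMIs. Ccl5 was 5.22-fold lower over all cells, but its log2 ratio was 0.55 in male and -3.59 in female cells. Among the highest, Ccl3 was 3.51-fold higher in 2.64% against 1.62% of cells, and Arhgef10, 3.95-fold higher (log2 1.98) in the thinned UMIs, had a log2 ratio of 0.40 in the UMIs set aside. Gfi1, a repressor that restrains stem cell proliferation, was spread over more cells. It was 4.06-fold higher (2.75 to 6.07) in 10.4% against 3.02% of cells, with at most 3 of its 73 member UMIs in 1 cell. Gbp8 was 3.14-fold higher overall with a log2 ratio of -0.66 in female cells.

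Immediate-early and dissociation genes were shifted upward, with a median log2 ratio of 0.39 and 22 of 24 above 0. The identity median was 0.33. Of the 24 genes 4 were at least 1.5-fold higher and none lower, Dusp2 at 474 against 292 CPM among them. Among cells with a Procr UMI the median was 0.38, with 6 of 24 higher. In the mutant libraries none of 26 tested was called (median log2 fold change 0.07). The cause was not tested. The remaining lists stand beside 3.80% higher and 3.51% lower over all genes. Of 17 inflammatory and NF-kB genes 4 were higher and 1 lower (0.17), with the chemokine Ccl4 2.19-fold higher (1.79 to 2.66). Of 22 STAT5 and cytokine feedback genes 4 were higher and 1 lower (0.11), the suppressors Socs1 and Socs2 at 2.19-fold and 2.21-fold among them. Adhesion and niche genes gave 4 higher and 1 lower of 23 (0.03), Hox genes and cofactors 1 higher of 8 (0.37), multipotent and lymphoid genes 1 higher and 2 lower of 13 (0.11), and myeloid genes 1 of each of 10 (0.10). Heat shock genes gave 1 higher of 21 (0.08). The NF-kB, Hox, lymphoid, myeloid and heat shock medians changed sign in at least 1 other choice of cells or UMIs.

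Growth and metabolism differed little by size, but 2 lists leaned to 1 side. Only 2 of 33 ribosome biogenesis genes and 4 of 54 oxidative phosphorylation genes had a log2 ratio above 0. Over all genes 3314 of 6755 did. Ribosome biogenesis genes gave 5 lower and none higher of 33 (-0.29), with Nolc1 1.77-fold lower and Srm 1.70-fold lower. None of 54 oxidative phosphorylation genes passed 1.5-fold (-0.15), and 1 of 24 glycolysis genes was lower (0.01). None of 88 ribosomal protein genes (-0.01) and none of 14 mitochondrially encoded genes (0.06) passed it. Of the 6 measured partners of Cd74 and Mif 1, the kinase Syk, was lower (-0.21). Mif itself was 1.38-fold lower (1.27 to 1.49), Cd44, a co-receptor of Cd74, was 1.02-fold higher and Cxcr4 was 1.10-fold lower, both with intervals that hold 1.

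**Figure D4:**
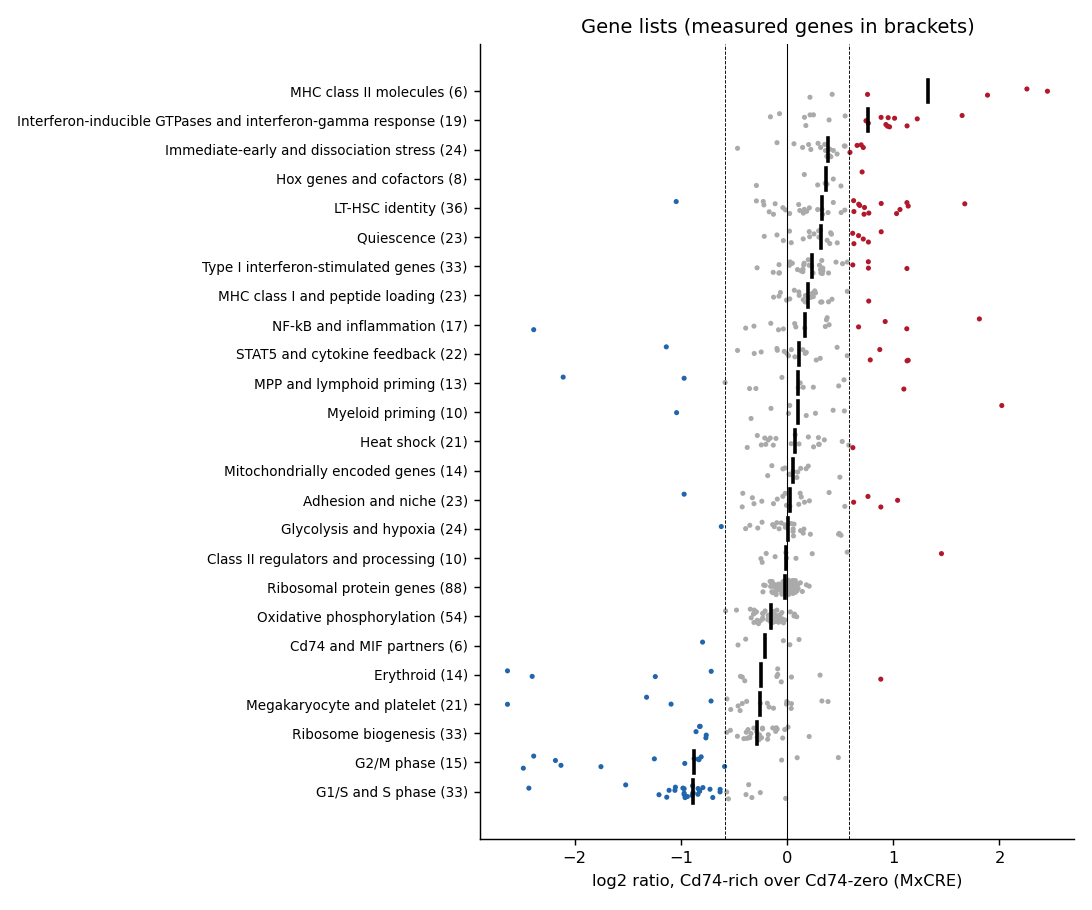
Log2 ratio of Cd74-rich over Cd74-zero in the MxCRE library (horizontal axis) for each measured gene (points) of 25 lists (vertical axis, number of measured genes in brackets); black bars are list medians and dashed lines mark 1.5-fold. Class II molecules (median 1.32) and interferon-gamma genes (0.77) lie highest, and G1/S (-0.88) and G2/M genes (-0.87) lowest.

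The pooled library held cells of male and female mice, which come from different animals. By Y-linked transcripts and Xist, 28.2% of 1154 male cells were Cd74-rich (25.7 to 30.9%) and 15.7% of 547 female cells (12.8 to 19.0%). Of the members with a call 79.1% were male, against 62.5% of Cd74-zero cells. The following list medians were above 0 in both sets. The class II median was 1.30 in male and 1.38 in female cells, the identity median 0.32 and 0.38, and the interferon-gamma median 0.97 and 0.54. Of the 14 highest genes 14 kept their direction in male and 13 in female cells. Of the 14 lowest 13 and 10 did. These genes were ranked on the same cells, so the counts are no independent support. The 86 female members alone gave 980 higher and 1036 lower genes of 6958.

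The libraries of the other genotypes took no part in the choice of members. With the same rule, 390 NPMc+ cells were Cd74-rich (17.3%, 15.8 to 19.0%), 95 Flt3-ITD cells (4.37%, 3.55 to 5.31%) and 341 NPMc+/Flt3-ITD cells (11.4%, 10.3 to 12.6%). With 1 library a genotype, genotype and library cannot be told apart. In each library Cd74-rich and Cd74-zero cells were summed, and edgeR's quasi-likelihood test with the library as a block compared both sums over the 3 libraries. Of 11087 genes 110 (0.992%) rose and 74 (0.667%) fell in Cd74-rich cells at a Benjamini-Hochberg adjusted p under 0.05. DESeq2 called 34 and 16, and edgeR without the block called 0 and 0 with 200 and 160 at an unadjusted p under 0.05. Leaving out NPMc+ gave 47 and 81, leaving out Flt3-ITD 115 and 95, and leaving out NPMc+/Flt3-ITD 534 and 490.

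Class II chains had the smallest adjusted p-values. With Cd74-rich given first, H2-Aa stood at 494 against 61.1 CPM in NPMc+. In Flt3-ITD it stood at 379 against 30.7 CPM, and NPMc+/Flt3-ITD had 482 against 81.7 CPM. Its log2 fold change was 3.01 ± 0.17 (SE, edgeR adjusted p 3.74e-10). H2-Eb1 changed by 2.85 ± 0.17 (edgeR adjusted p 9.99e-10) and H2-Ab1 by 1.996 ± 0.13 (2.96e-09). In all 3 libraries the Cd74-rich sum of these genes exceeded the Cd74-zero sum of every library. Of the 8 class II molecules tested 5 rose and none fell, the others being H2-DMb1 (0.76 ± 0.16, 0.0139) and H2-DMb2 (1.72 ± 0.38, 0.0207). Ctss rose by 2.48 ± 0.28 (1.73e-05). The calls of H2-DMb1 and H2-DMb2 were lost without NPMc+ (adjusted p 0.191) and without NPMc+/Flt3-ITD (0.0871), in that order, and by DESeq2 (0.128 and 0.556).

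Of the 14 genes highest in MxCRE 10 rose in the mutant libraries and none fell: Arhgef10, Ctss, H2-Aa, H2-Ab1, H2-Eb1, Ltb, Ly6a, Meg3, Mllt3 and Sult1a1. Gfi1, Ccl3, Gbp8 and Ccl4 did not pass (edgeR adjusted p 0.208, 0.287, 0.815 and 0.0548). Of the 14 lowest 12 were tested and 6 fell: Car1, Gata1, Mki67, Nkg7, S100a8 and S100a9. DESeq2 called 7 of those 10, losing Arhgef10, Ltb and Mllt3 (DESeq2 adjusted p 0.220, 0.609 and 0.999), and none of these 6 (0.206 to 0.999). S100a8 and S100a9 rest on few cells here too: 1 Cd74-zero cell of Flt3-ITD held 1233 neutrophil marker UMIs and 1 of NPMc+/Flt3-ITD 1096, and both genes fell under the filter on low counts once cells with other-lineage markers were left out. Car1 then had an edgeR adjusted p of 0.958. Of the 257 genes higher in MxCRE 256 were tested, 209 had the same direction and 52 rose. Of the 237 lower 235 were tested, 199 had the same direction and 27 fell. None was called in the opposite direction. Leaving out Flt3-ITD ended the call of Arhgef10 (adjusted p 0.278). Leaving out NPMc+ ended those of Sult1a1 (0.0777), Car1 (0.536), Gata1 (0.240) and Mki67 (0.323).

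Stem cell identity genes were among those that rose. Of 42 tested 11 rose and none fell, beside 0.992% and 0.667% of all genes. Procr stood at 283 against 63.0 CPM in NPMc+ and at 133 against 50.2 in Flt3-ITD. NPMc+/Flt3-ITD had 59.6 against 28.7 CPM, and Procr rose by 1.62 ± 0.19 (edgeR adjusted p 2.80e-05). Hlf rose by 0.995 ± 0.14 (0.000294), Mecom by 0.85 ± 0.16 (0.00421) and Ly6a by 1.33 ± 0.14 (6.78e-06). The Cd74-rich sum of these 4 genes was the higher one in each of the 3 libraries. Cdkn1c and Ndn rose too, by 1.30 ± 0.23 and 2.14 ± 0.39 (edgeR adjusted p 0.00313 and 0.00392). Without NPMc+ the adjusted p of Mecom was 0.0777, of Cdkn1c 0.303 and of Ndn 0.487, and DESeq2 gave 0.0909 for Ndn.

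Some of these genes did not follow in NPMc+/Flt3-ITD. Mllt3 stood at 352 against 81.9 CPM in NPMc+ and 228 against 49.5 in Flt3-ITD, but at 24.4 against 29.7 in NPMc+/Flt3-ITD. Sult1a1 had log2 ratios of 1.72, 2.65 and -0.60 in the same order, and Meg3 was at 0 CPM in both classes of NPMc+/Flt3-ITD. Cd48 stood at 38.5 against 138 CPM in NPMc+ and 94.7 against 214 in Flt3-ITD, whereas NPMc+/Flt3-ITD had 795 against 606 CPM (edgeR adjusted p 0.305). The difference between libraries was not tested. In NPMc+/Flt3-ITD 29.5% of Cd74-zero cells and 7.62% of Cd74-rich cells held markers of another blood cell type.

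**Figure D5:**
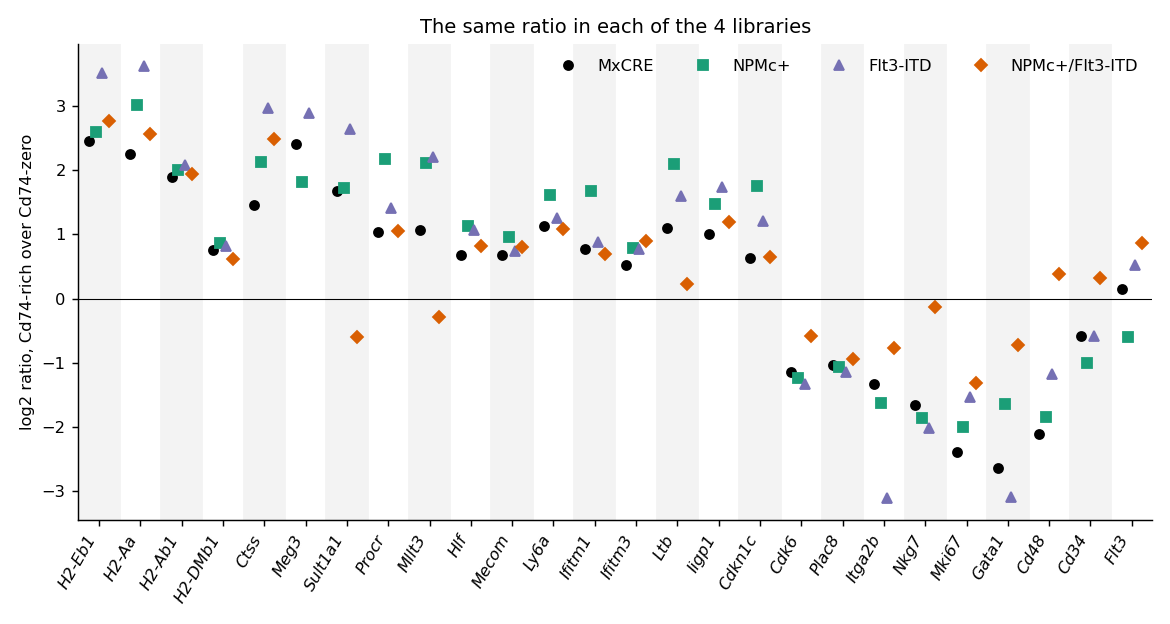
Log2 ratio of Cd74-rich over Cd74-zero (vertical axis) for 26 named genes (horizontal axis) in MxCRE and the 3 mutant libraries, 1 point a library; Meg3 has no point in NPMc+/Flt3-ITD, where it is at 0 in both classes. Class II genes, Procr, Hlf, Mecom and Ly6a lie above 0 in all 4 libraries, Cdk6, Plac8 and Itga2b below 0 in all 4, while Sult1a1, Mllt3, Cd48 and Cd34 change side in NPMc+/Flt3-ITD.

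Interferon genes rose in part. Of 24 tested 5 rose and none fell, beside 0.992% and 0.667% of all genes, and DESeq2 called 2 higher. Among the 5 were Iigp1 (1.41 ± 0.19, edgeR adjusted p 0.000252) and Gbp2 (0.79, 0.0173). Irf1, Igtp and Irgm1, all higher in MxCRE, did not pass (edgeR adjusted p 0.53, 0.37 and 0.46). The call of Gbp2 was lost without NPMc+ (adjusted p 0.199) and by DESeq2 (0.141). Of 40 type I targets 4 rose, with Ifitm1 at 1.07 ± 0.12 (edgeR adjusted p 1.72e-05) and Ifitm3 at 0.82 ± 0.09 (1.98e-05). DESeq2 called 3 of the 40 higher.

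Few cell cycle genes were called, with list medians below 0. None of 39 G1/S genes was called (median log2 fold change -0.47, 15 at an unadjusted p under 0.05 and lower). Of 49 G2/M genes 6 fell (median -0.76), beside 0.667% of all genes, and DESeq2 called 2 lower. Among the 6 was Mki67, by 1.69 ± 0.34 (edgeR adjusted p 0.0108, 0.323 without NPMc+ and 0.328 by DESeq2). Cdk6 fell by 1.01 ± 0.14 (0.000252) and Plac8 by 1.05 ± 0.09 (2.54e-07). Plac8 stood at 527 against 1112 CPM in NPMc+, with the Cd74-zero sum the higher in each library.

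Megakaryocyte genes gave more calls downward. Of 31 tested 9 fell and 1 rose, beside 0.667% and 0.992% of all genes, and DESeq2 called 4 lower and none higher. Itga2b fell by 1.39 ± 0.21 (edgeR adjusted p 0.000886), Gp5, a platelet glycoprotein, by 1.31 ± 0.26 (0.00807) and Gata1 by 1.42 ± 0.29 (0.00973). Without NPMc+ the adjusted p of Gp5 was 0.336 and of Gata1 0.240, and DESeq2 gave 0.212 and 0.206. Of 20 erythroid genes 5 fell and 1 rose by edgeR, while DESeq2 called none lower and 1 higher. Without cells that held proliferation gene UMIs, edgeR called 1 of 17 lower and none higher.

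Immunoglobulin transcripts also rose in the mutant libraries. Jchain changed by 5.44 and Igkc by 4.28 on the log2 scale (edgeR adjusted p 2.22e-08 and 3.41e-06). In NPMc+ the B cell markers summed to 2809 CPM in Cd74-rich and 271 CPM in Cd74-zero cells, with 1669 UMIs in a single cell. They summed to 832 and 57.1 CPM in Flt3-ITD, and ran the other way in NPMc+/Flt3-ITD, at 146 and 253 CPM. In Flt3-ITD the plasma cell markers summed to 4702 and 25.7 CPM, with 1330 UMIs in a single cell, and in NPMc+/Flt3-ITD to 4.89 and 2.51 CPM. Igkc and Igha were at 0 in the MxCRE members. With all cells that held other-lineage markers left out, edgeR called 116 genes higher and 73 lower. Of the 110 higher genes 94 were the same (85.5%, and 81.0% of the 116), and of the 74 lower 43 (58.1%, and 58.9% of the 73). In the fit without those cells the immunoglobulin genes were not called. Jchain changed by 0.70, Igkc by 0.018 and Igha by 0.20 on the log2 scale (edgeR adjusted p 0.688, 0.998 and 0.889). That step also removed other cell types, 665 of 2256 Cd74-zero cells in NPMc+/Flt3-ITD, so the part of the immunoglobulin cells alone was not tested.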

How the data were processed

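Long-term hematopoietic stem cells were sorted from bone marrow and run on 10x Single Cell 3' version 2, per the labels' protocols. The deposited tables hold UMI counts per gene and cell barcode; STARsolo, STAR 2.7.0c and mm10 are named in the submitters' processing notes. Of 2726, 2472, 2677 and 3532 barcodes (MxCRE, NPMc+, Flt3-ITD, NPMc+/Flt3-ITD) 2311, 2250, 2175 and 2991 passed; all barcodes left out had under 3000 UMIs. Median depth was 7859 to 9750 UMIs. No doublet caller was run; cells with both Y-linked genes and Xist were counted.

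Thinned UMIs (seed 1) were summed per class and scaled to CPM, with exact conditional binomial 95% intervals of the ratio. Genes needed 20 CPM in either class; 1.5-fold counted as higher or lower. A sum of 0 was set to 3 counts over the class. Summed counts of the 3 mutant libraries were tested with edgeR 4.0.16 (TMM, filterByExpr, library block, quasi-likelihood, Benjamini-Hochberg) or DESeq2 1.42.0 in R 4.3.3. Both classes come from the same library, which pairs them: their deviations correlated at 0.504, 0.435 and 0.641 over 10183 genes. The libraries carry 3 different genotypes, so the p-values measure spread over these. On simulated counts for the 3 mutant libraries (11087 genes, 200 changed), the test recovered 74% of 4-fold and 26% of 2-fold changes, with 2 false calls of 102. The simulation used a fixed dispersion, the same change in each library and no single cells with extreme counts. Its rate of false calls therefore need not hold for these data. Named genes were the 14 highest and 14 lowest by the interval bound nearest to 1, the class II molecules, 3 per list and a fixed set; Irgm2, Igtp, Gbp2, Tgtp1, Irgm1, Jchain, Igkc, Gfi1b and a few list genes were named after their values were seen. The members, gene lists and markers were chosen with earlier results of these data known, so list counts are no independent support. Alternatives changed the Cd74 limit, depth, random draw, scaling, floor, cell sets and test. A few genes are not reported here.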

Additional observations from a re-analysis of the deposited data

Results flagged for a closer look

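The share of Cd74-rich cells differed by sex in opposite directions between libraries, and this difference was not tested. In MxCRE 28.2% of male and 15.7% of female cells were Cd74-rich. In NPMc+/Flt3-ITD 11.0% of 2258 male cells and 26.8% of 168 female cells were. In NPMc+ the shares were 19.9% and 8.65%, and in Flt3-ITD 4.00% and 5.82%, the latter with intervals that overlap. The number of mice behind each share is not given in the sources used here, so sex and animal cannot be told apart.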

How the results depend on the processing

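The share of 24.6% depends on the limit and the depth: 41.2% at 1 or more Cd74 UMIs, 16.8% at 3 or more, 19.2% thinned to 2000 and 33.2% thinned to 5000 UMIs. It was 28.2% in male cells, 15.7% in female cells, 28.1% without proliferation gene UMIs, 29.1% at 5000 to 10000 UMIs and 35.2% with a Procr UMI; the last 3 sets were chosen after seeing the data. The counts of genes higher and lower in MxCRE (257 and 237) became 142 and 137 at 1 or more UMIs, 424 and 368 in male cells, 980 and 1036 in female cells, 65 and 73 at a floor of 50 CPM, 935 and 724 at a floor of 5 CPM and 552 and 583 in cells with a Procr UMI. Lower genes were 360 at 3 or more UMIs and 359 at 2000 UMIs; higher genes were 168 at 5000 UMIs and 407 with totals that leave out mitochondrial and ribosomal protein genes. In the mutant libraries DESeq2 called 34 higher and 16 lower and edgeR with no replicate block 0 and 0. Lower genes were 229 with no filter on low genes, 47 at 3 or more UMIs and 41 without proliferation gene UMIs. Leaving out 1 library gave 47 to 534 higher and 81 to 490 lower. Of 500 list medians under the alternatives 49, in 13 of 25 lists, changed sign, at -0.15 to 0.31; among them were erythroid (-0.25; 0.0063 without proliferation gene UMIs, 0.054 with a Procr UMI), Hox (0.37; -0.084 with a Procr UMI), NF-kB (0.17; -0.058 in female cells), lymphoid (0.11; -0.14 in male cells) and myeloid genes (0.10; -0.073 in male cells). Among lists and genes that were called, direction reversed for the G2/M median (0.17 without proliferation gene UMIs, 0.076 with a Procr UMI), Cdkn1c against cells with 1 Cd74 UMI (-0.0098) and Ccl5 in the mutant libraries without other-lineage cells (1.25). The cause was not tested. Of all settings, members against cells with 1 Cd74 UMI changed the most results: 57 moved, 1 reversed and 21 stayed the same. The identity median was then 0.06 and the interferon-gamma median 0.34. With 568 cells of 3000 UMIs, low genes rest on few UMIs (Arhgef10 on 38 and 23).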
